A study of Mus musculus with 19 samples.

Results

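*Sox5*, *Foxp2*, *Camta1*, *Dach1* and *Zbtb20* are 5 long genes of neural transcription factors that carried extrachromosomal circular DNA (eccDNA) mainly in the spinal cord of ALS-model mice. They are 5 of the 8336 genes of the eccDNA table and were selected as transcription factor genes with high values in ALS libraries. The 5 were thus selected on the measured ALS and control values themselves, so the levels and group differences of the 5 genes are given as a description. Where they are counted among the genes past the study's thresholds, that count follows from the selection and is no test of them.

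The study isolated circular DNA from the cervical spinal cord of 9 ALS mice and 10 control mice, 1 library per sample. The ALS mice were symptomatic males of the line B6.Cg-Tg(SOD1*G93A)1Gur/J, which constitutively overexpresses human mutant *SOD1* (*hSOD1* G93A). They were included when motor signs with a severity score of 1 or 2 had appeared at an age of 18 to 21 weeks, and mutants without timely motor signs were left out. Controls were C57BL/6J males of the same age without the transgene. All samples shared the same handling: an input of 400 ng DNA, 7 days of exonuclease V to remove linear DNA and 48 hours of rolling circle amplification. The cord was taken whole, so the cell type that gave a circle is not known, more cells with a circle and more circles or copies per cell cannot be told apart, and as DNA was sequenced no marker of the tissue could be checked. Mouse *Sod1* had an eccDNA in 1 ALS and 0 control libraries. Since the transgene is human, this does not check the labels.

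A transcription factor binds DNA at short sequences and raises or lowers the transcription of the genes nearby. Many factors that set the identity of neurons lie in very long genes, in which small exons are separated by large introns. EccDNA consists of circles cut or copied out of the chromosomes, and a circle over such a gene usually carries a fragment of it, not the entire transcription unit.

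The measure is PpGC, the produced per gene circles. The split reads, which cross the junction of a circle, were summed over all circles that overlap a gene, scaled by how much shorter the gene is than the longest one, and given as log2(PpGC + 1). A value of 0 means that no circle with at least 2 split reads overlapped the gene. From the gene lengths of GENCODE M21 the split reads behind each value could be recovered, and they came out whole, within 0.02 reads, for 98.9% of the 13763 values above 0. Libraries were not scaled to each other. The ALS libraries held 74016 to 391394 split reads on genes and the control libraries 3583 to 123387. An eccDNA lay on 694 to 2204 genes in ALS, here called the load of a library, and on 57 to 723 genes in controls.

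In the ALS libraries 36 of the 45 values of the 5 genes were above 0, and in the control libraries 2 of 50. All 5 genes were found in 3 ALS libraries (ALS 1, ALS 3 and ALS 5), 4 of them in ALS 2, ALS 4 and ALS 8, and 3 of them in ALS 6, ALS 7 and ALS 9. Control 5 and Control 7 had 1 gene each, and the other 8 controls had 0. By the study's thresholds, a difference of means above 1 and a p below 0.01 in the methods' t-test (two-sided, for equal variances), all 5 were higher in ALS, as were 1.33% of all 8336 genes, 111 in number. An eccDNA in at least 6 ALS libraries and at most 1 control was found for all 5 and for 0.864% of the table, 72 genes. No gene was lower in ALS at the same thresholds (0% of 8336), and no gene was lower at an unadjusted p below 0.05, by the methods' t-test or by the exact permutation test. With the number of genes that carried an eccDNA in each library as a covariate, the counts were 26 genes higher and 84 lower in ALS. Nothing is read from the counts for the 5 genes, since this contrast chose them. Over all 8336 genes, 86.5% had a higher mean in ALS, and 4.2% were higher at an unadjusted p below 0.05.

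**Figure D1:**
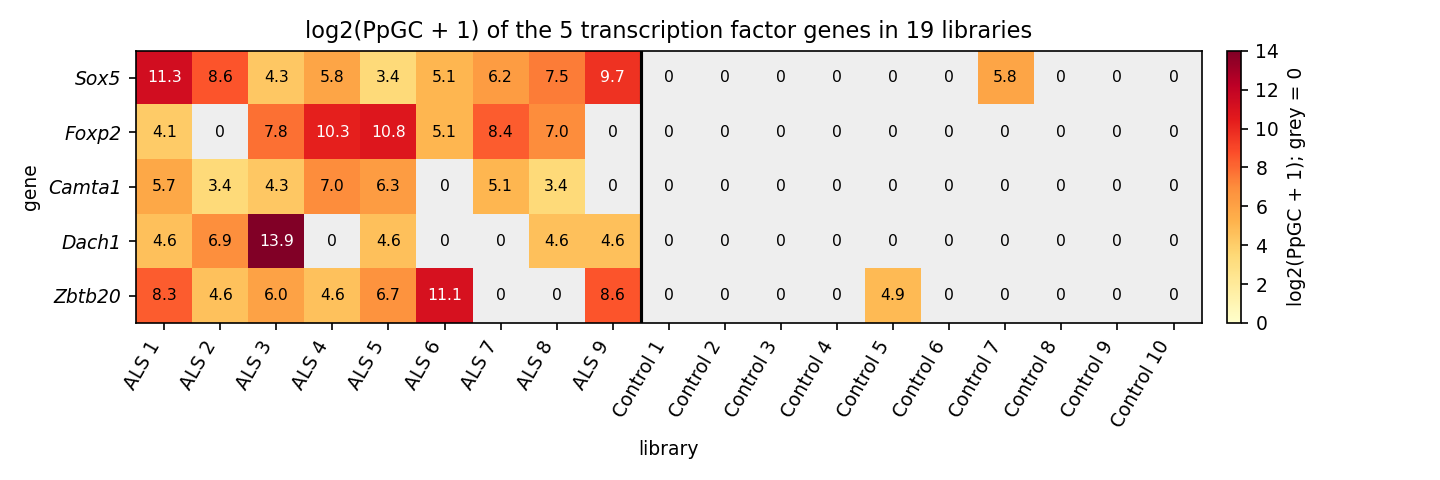
Values of log2(PpGC + 1) of the 5 genes (rows) in 9 ALS and 10 control libraries (columns, split by the vertical line), with grey for 0. *Sox5* is the 1 gene of the 5 found in every ALS library, and only *Sox5* in Control 7 and *Zbtb20* in Control 5 are above 0 among controls.

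*Sox5* (ENSMUSG00000041540, chr6:143828425-144781977, minus strand, 954 kb) encodes a SoxD protein with an HMG box, known for its part in the order in which cortical projection neurons are made and in the timing of the oligodendrocyte lineage. Its log2 PpGC was 11.32 in ALS 1, 8.56 in ALS 2, 4.29 in ALS 3, 5.83 in ALS 4, 3.36 in ALS 5, 5.07 in ALS 6, 6.24 in ALS 7, 7.47 in ALS 8 and 9.67 in ALS 9. Of the controls, Control 7 had 5.83 and the other 9 had 0. The groups overlapped: Control 7, with 12 split reads, equalled ALS 4 and stood above ALS 3, ALS 5 and ALS 6. The means were 6.87 ± 2.61 (SD, n = 9) in ALS and 0.58 ± 1.84 (SD, n = 10) in controls, a difference of 6.29. This was the 8th largest difference of the table, and *Sox5* was among the 8 genes with an eccDNA in all 9 ALS libraries, of which 2 had one in at most 1 control.

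The split reads of *Sox5* ran from 2 in ALS 5 to 549 in ALS 1, with a median of 16. ALS 1 held 549 of its 884 ALS split reads (62.1%, 95% Wilson interval 58.9 to 65.2%). The antisense gene *Sox5os4*, 39.0 kb long and inside *Sox5*, had 4 split reads in ALS 2, where *Sox5* had 81, and 0 in all other libraries.

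*Foxp2* (ENSMUSG00000029563, chr6:14901349-15441977, plus strand, 541 kb) encodes a forkhead repressor best known for its role in speech and vocal learning and for its expression in striatum, thalamus and Purkinje cells. Its log2 PpGC was 4.12 in ALS 1, 7.80 in ALS 3, 10.30 in ALS 4, 10.77 in ALS 5, 5.08 in ALS 6, 8.36 in ALS 7 and 6.95 in ALS 8, and it was 0 in ALS 2 and ALS 9. All 10 controls were at 0, so the groups overlapped only through those 2 ALS libraries. The ALS mean was 5.93 ± 3.99 (SD, n = 9), which is also the difference, since the control mean was 0. The highest counts were 213 split reads in ALS 5 and 154 in ALS 4, and the lowest above 0 were 2 in ALS 1 and 4 in ALS 6. ALS 5 held 213 of 455 split reads (46.8%, 95% Wilson interval 42.3 to 51.4%). Together with the 154 of ALS 4, these were most of the *Foxp2* reads.

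*Camta1* (ENSMUSG00000014592, chr4:150917322-151861876, minus strand, 945 kb) encodes a calmodulin-binding transcription activator with strong expression in brain, whose loss is known to cause ataxia. Its log2 PpGC was 5.72 in ALS 1, 3.38 in ALS 2, 4.31 in ALS 3, 7.00 in ALS 4, 6.25 in ALS 5, 5.08 in ALS 7 and 3.38 in ALS 8. It was 0 in ALS 6, in ALS 9 and in all 10 controls. With an ALS mean of 3.90 ± 2.52 (SD, n = 9) and a control mean of 0, *Camta1* had the smallest difference of the 5. It also rested on the fewest reads, 69 in all, with at most 27 in any library (ALS 4) and only 2 in ALS 2 and in ALS 8. Its reads were spread the most evenly of the 5 genes, ALS 4 holding 27 of 69 (39.1%, 95% Wilson interval 28.5 to 50.9%).

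The value of *Camta1* in ALS 1 coincided with another gene. The circadian clock gene *Per3* (chr4:151003652-151044665, 41.0 kb) lies inside the GENCODE span of *Camta1* and had 11 split reads in ALS 1, the same number as *Camta1* there, and 0 in all other libraries. On the scale of the table these reads give 5.72 for *Camta1* and 10.22 for the shorter *Per3*. The RefSeq model of *Camta1* is shorter, 802 kb, and ends 14.9 kb before *Per3*. The deposited values came out as whole reads for 7 of 7 *Camta1* values with the GENCODE length and for 0 of 7 with the RefSeq length, so the table uses the longer span. Without the reads of ALS 1 the difference of *Camta1* was 3.27, an alternative chosen after seeing the data.

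**Figure D2:**
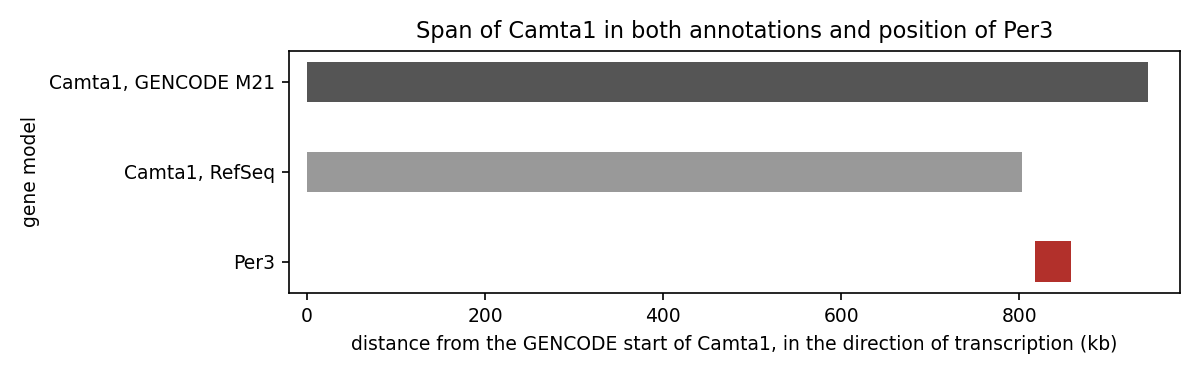
Spans of *Camta1* in GENCODE M21 and RefSeq and the position of *Per3*, as distance in kb from the GENCODE start of *Camta1* in the direction of transcription. *Per3*, at 817 to 858 kb, lies within the GENCODE bar, which reaches 945 kb, and beyond the RefSeq bar, which stops at 802 kb.

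*Dach1* (ENSMUSG00000055639, chr14:97786853-98169765, minus strand, 383 kb) encodes a co-repressor related to Ski and Sno that acts with Eya proteins in organ and neural development. Its log2 PpGC was 13.94 in ALS 3, 6.87 in ALS 2 and 4.59 in each of ALS 1, ALS 5, ALS 8 and ALS 9. It was 0 in ALS 4, ALS 6 and ALS 7 and in all 10 controls. The 4 values of 4.59 are the lowest above 0 that the gene can take, 2 split reads each. ALS 3 stood far apart with 1353 of 1371 split reads (98.7%, 95% Wilson interval 97.9 to 99.2%), while ALS 2 had 10. The ALS mean was 4.35 ± 4.41 (SD, n = 9), an SD larger than the mean, and the difference from the controls was 4.35.

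*Zbtb20* (ENSMUSG00000022708, chr16:42875881-43642602, plus strand, 767 kb) encodes a BTB zinc finger repressor known for its role in hippocampal neuron identity and in astrocyte formation. Its log2 PpGC was 8.34 in ALS 1, 4.59 in ALS 2, 6.01 in ALS 3, 4.59 in ALS 4, 6.72 in ALS 5, 11.07 in ALS 6 and 8.58 in ALS 9, and it was 0 in ALS 7 and ALS 8. Control 5 had 4.90, from 5 split reads, and the other 9 controls had 0. Control 5 was thus above ALS 2 and ALS 4, with 4 split reads each, and above both ALS libraries at 0. The means were 5.55 ± 3.75 (SD, n = 9) in ALS and 0.49 ± 1.55 (SD, n = 10) in controls, a difference of 5.06. ALS 6 held 371 of 530 ALS split reads (70.0%, 95% Wilson interval 66.0 to 73.7%).

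**Figure D3:**
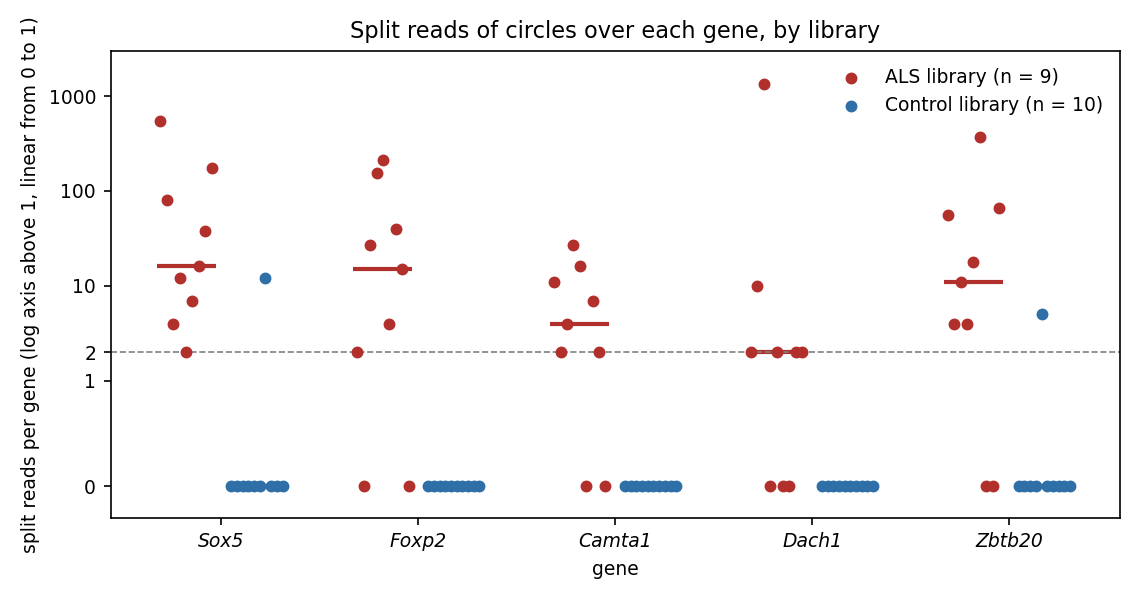
Split reads over each gene in each ALS (red, n = 9) and control (blue, n = 10) library, on an axis that is logarithmic above 1 and linear from 0 to 1. Short bars are group medians and the dashed line is the minimum of 2 split reads; *Dach1* has 1 library at 1353 reads and 4 at the minimum, whereas *Camta1* stays at or below 27.

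The counts behind the 36 ALS values were low. Their median was 11.5 split reads, 15 values were under 10 reads, 8 were at the minimum of 2 and 6 were at 100 or more. At the minimum were 22.2% of the values of the 5 genes, against 19.6% of the ALS values above 0 over all genes and 14.5% over genes of 300 kb or more. The median over all genes was 7 reads and over those long genes 11. Among 121 other genes with an eccDNA in at least 6 ALS libraries, the highest library held a median of 64.7% of the ALS split reads (range 22.5 to 99.9%). Only 1 of them was as concentrated as *Dach1*, and 14 were as even as *Camta1* or more so. Split reads pass through amplification without molecular identifiers, so all intervals cover counting error only.

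In part the 5 genes shared libraries without sharing the height of their values. Over the 10 pairs of genes the root mean square difference in log2 PpGC over 19 libraries was 2.37 to 4.30. *Foxp2* and *Camta1* were the closest pair, with both present in 6 ALS libraries and both absent in ALS 9. *Foxp2* and *Dach1* were the most distant, with 4 ALS libraries in common. The library that was highest differed for each gene: ALS 1 for *Sox5*, ALS 5 for *Foxp2*, ALS 4 for *Camta1*, ALS 3 for *Dach1* and ALS 6 for *Zbtb20*. In ALS 3 the 5 genes held 1399 of 176919 split reads, the most of any library, and in ALS 8 they held 57 of 318294.

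By the same distance, each gene had closer partners elsewhere among 402 genes with an eccDNA in at least 5 libraries. The nearest to *Sox5* were the cadherin gene *Cdh12* (2.10), the postsynaptic scaffold gene *Dlgap2* (2.49) and *Csmd1* (2.61). For *Foxp2* they were the SNARE gene *Vti1a* (1.98), the calcium-activated potassium channel gene *Kcnma1* (2.05) and *Catsperb* (2.33). *Camta1* was close to the collagen gene *Col25a1* (1.69). *Dach1* was nearest to the lipid kinase gene *Pik3c2g* (1.89), *Thsd4* (2.03) and *Thsd7b* (2.18). *Zbtb20* was nearest to the cystine transporter gene *Slc7a11* (2.28), the neuregulin receptor gene *Erbb4* (2.40) and the adhesion gene *Lsamp* (2.55). Of these, *Lsamp* alone lies on the same chromosome as its partner. The likeness is a description over libraries that differ in load, and it carries no test. Far more genes were compared outside the 5 than within. Closer partners outside thus do not show that the 5 are unlike each other.

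The load of the libraries differed between the groups. Only Control 1, at 723 genes, reached into the ALS range, above ALS 6 at 694. Control 1 had 0 of the 5 genes whereas ALS 6 had 3. That contrast follows in part from the choice of the 5 as high in ALS, so nothing is read from it. With the load as a covariate the group difference was 5.68 for *Sox5*, 6.28 for *Foxp2*, 2.67 for *Camta1* and 6.42 for *Zbtb20*, while that of *Dach1* turned to -2.78. Scaling all libraries to an equal total of split reads gave differences of 5.43, 5.18, 3.39, 3.69 and 3.88 in the order *Sox5*, *Foxp2*, *Camta1*, *Dach1* and *Zbtb20*. The loads of the groups met only at Control 1, so group and load cannot be told apart.

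Within the 9 ALS libraries the relation of each gene to the load is given as a description, with no p, since the genes were chosen on their values in these libraries. The value of *Dach1* was higher where the load was higher (Pearson r = 0.86, Spearman rho = 0.85). *Dach1* was at 0 in ALS 4, ALS 6 and ALS 7, with loads of 923, 694 and 1105, and highest in ALS 3, which had the highest load of 2204. Without ALS 1 and ALS 3, the 2 libraries farthest from the median load, r was 0.76 and rho was 0.85. The other genes gave r = 0.17 for *Sox5*, -0.05 for *Foxp2*, 0.26 for *Camta1* and -0.13 for *Zbtb20*. Without ALS 1 and ALS 3, r for these genes was 0.47, -0.23, 0.18 and -0.67 in the same order. Over the 121 other genes with an eccDNA in at least 6 ALS libraries, r with the load had a median of 0.36, with -0.19 at the 10th and 0.69 at the 90th percentile and 0.86 at the highest. With the split reads of a library in place of the number of genes, r for *Dach1* was 0.0087. Neither the labels nor the table give batches within which to repeat this.

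**Figure D4:**
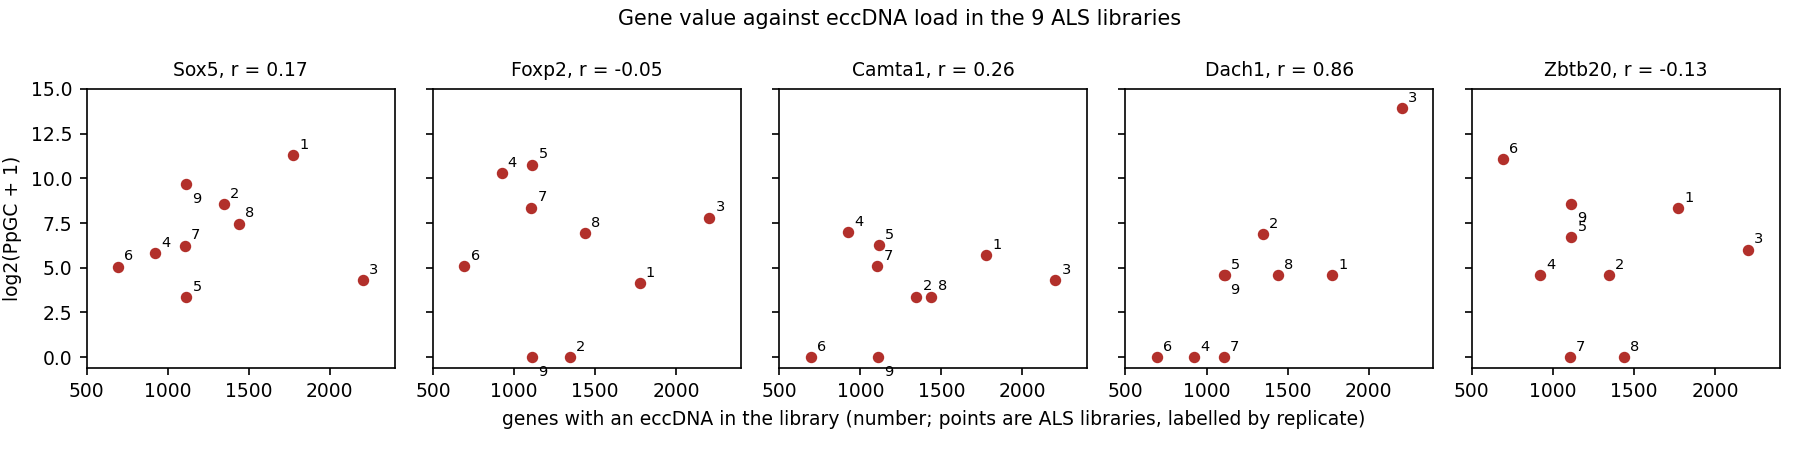
Value of log2(PpGC + 1) of each gene against the load of the library, counted as genes that carried an eccDNA, over the 9 ALS libraries, with the replicate number beside each point and Pearson r above each panel. *Dach1* is at 0 in the 3 libraries of lowest load and at 13.94 in ALS 3, and r in the other 4 panels lies between -0.13 and 0.26.

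For *Zbtb20* and *Dach1*, the share of a library's genes that lie on their chromosome moved with their zeros in part. On chromosome 16, ALS 7 had 20 of 1060 genes (1.89%, 95% Wilson interval 1.22 to 2.90%) and ALS 8 had 20 of 1398 (1.43%, 0.93 to 2.20%), against 2.76 to 5.69% in the other 7 ALS libraries. Both of these were the libraries without *Zbtb20*. On chromosome 14, ALS 7 had 18 of 1060 genes (1.70%, 1.08 to 2.67%) and ALS 9 had 12 of 1089 (1.10%, 0.63 to 1.92%), against 3.18 to 7.51% in the others. *Dach1* was absent from ALS 7 but present at 2 reads in ALS 9, and it was also absent from ALS 4 and ALS 6, with 5.64% (4.31 to 7.33%) and 4.88% (3.50 to 6.78%). Chromosomes 4 and 6, with *Camta1* and with *Sox5* and *Foxp2*, held steadier shares of 4.97 to 7.17% and 5.92 to 7.40% over the ALS libraries. The part of these shares in the zeros was not tested.

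All 5 genes were long. They span 383 to 954 kb, between the percentiles 95.1 and 99.2 of the 8088 genes with a known length, whose median was 49.3 kb. Among the 587 genes of 300 kb or more, 88 passed the thresholds (15.0%), and the median difference over them was 2.46, against 1.19 over all genes. By difference *Sox5* ranked 4th, *Foxp2* 12th, *Zbtb20* 30th, *Dach1* 61st and *Camta1* 103rd among those 587. Annotated exons made up 1.51% of the span of *Sox5*, 3.02% of *Foxp2*, 1.54% of *Camta1*, 1.91% of *Dach1* and 4.01% of *Zbtb20*, and coding sequence at most 0.59%. Base composition did not unite them. *Foxp2* (36.5% G and C) and *Dach1* (35.2%) lay below the 10th percentile of the 587 long genes (37.0%), *Camta1* (48.9%) lay above their 90th (45.5%), and *Sox5* (42.7%) and *Zbtb20* (38.6%) lay between. The table gives no position of a circle within a gene, so whether exons were on the circles was not analysed here.

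Of 8 close paralogs of the 5 genes 4 were in the table, and all 4 were at 0 in every control. Nothing is read from these zeros, since 91.1% of all values of the table over both groups were 0. All 4 had a higher mean in ALS, as did 86.5% of all genes, and 0 passed the thresholds, with 1.33% over all genes. *Sox6* and *Foxp1*, 2 of the 4 (50%), were higher at an unadjusted p below 0.05 in the methods' t-test, against 4.2% of all genes, and neither was below 0.05 in the exact test. *Sox6*, the SoxD partner of *Sox5* in the oligodendrocyte and cartilage lineages, was present in 4 ALS libraries, with 141 split reads in ALS 3, 42 in ALS 7, 8 in ALS 5 and 5 in ALS 1, and differed by 3.31 (exact permutation p = 0.0650, adjusted p = 1). *Foxp1*, which pairs with *Foxp2* and marks limb-innervating motor neurons of the spinal cord, was likewise present in 4, with 519 reads in ALS 8, 68 in ALS 1 and 6 in both ALS 5 and ALS 7. Its difference was 3.55 (exact permutation p = 0.0650, adjusted p = 1). *Sox13* (1.10) and *Dach2* (0.98) each came from ALS 3 alone, with 9 and 55 split reads (both exact permutation p = 0.947, adjusted p = 1).

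Over the Sox, Fox, Zbtb, Dach, sine oculis and Eya families with known partners and targets of the 5 factors, 28 of 139 other genes were in the table. Here and in the lists that follow the 5 genes, chosen as high in ALS, are left out, while the shares over all genes keep them, so the lower counts past the thresholds follow in part from that choice and are not compared. Of the 28, 25 had a higher and 3 a lower mean in ALS, which is 89.3% higher against 86.5% over all genes. Of the 28, 0 passed the thresholds (1.33% over all genes), and 4 (14.3%) were higher at an unadjusted p below 0.05 in the methods' t-test, against 4.2%. Their median difference was 1.41, against 1.19 over all genes. By family, 2 of 19 other Sox genes, 5 of 43 Fox genes, 9 of 45 Zbtb genes and 5 of 14 Dach, sine oculis and Eya genes were measured, with median differences of 2.20, 1.88, 1.39 and 1.44. *Cntnap2*, a neurexin-like gene repressed by FOXP2 and 1 of 9 partner or target genes of 22 in the table, was present in all 9 ALS libraries, with 2 to 832 split reads, but also in 4 controls. Its log2 PpGC was 2.31 to 10.68 in ALS (median 7.16) and 14.11 in Control 8, 6.25 in Control 9, 5.11 in Control 1 and 3.89 in Control 2, so the highest value of the gene was a control. The difference of 3.69 did not pass (exact permutation p = 0.0596, adjusted p = 1), and it was the 1 gene of these families that passed when Control 8 was left out.

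Among other neural transcription factor genes, 118 of 194 were in the table, 109 higher (92.4%, against 86.5% of all genes) and 9 lower on average in ALS, with a median difference of 1.31. At the thresholds 1 passed (0.847%, with 1.33% over all genes). At an unadjusted p below 0.05 in the methods' t-test 16 were higher (13.6%, against 4.2%) and 0 lower. The 118 genes had a median length of 163 kb, against 49.3 kb over all genes with a known length. For this and the other lists, no share at this p was computed over genes of like length.

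Others of these genes recurred in ALS and were also found in controls. *Nfia*, a glial and neuronal nuclear factor gene, was in 6 ALS and 2 control libraries, with a difference of 3.11 (exact permutation p = 0.0812, adjusted p = 1). *Rora*, the nuclear receptor gene of Purkinje cell and spinal interneuron development, was in 6 ALS and 4 control libraries and differed by 2.51 (exact p = 0.116, adjusted p = 1). *Auts2*, a 1106 kb gene of neuronal differentiation, was in 7 ALS and 6 control libraries and differed by 1.22 (exact p = 0.456, adjusted p = 1). It had 941 split reads in ALS 7 and 36 each in Control 7 and Control 9.

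Fewer genes were listed for the spinal cord itself. Of 78 genes that specify motor neurons or spinal interneurons 19 were in the table, 16 higher (84.2%, against 86.5% of all genes) and 3 lower on average in ALS. Of these 0 passed the thresholds (1.33% over all genes), 2 (10.5%, against 4.2%) were higher at an unadjusted p below 0.05 in the methods' t-test, and the median difference of 1.02 was below that of all genes. Their median length was 61.0 kb, against 163 kb for the 118 neural factor genes. Over all these lists 140 other genes had a known length, 35 of them 300 kb or more. Of those 35, 34 had a higher mean in ALS, as did 95.4% of all 587 genes of that length, with a median difference of 2.23 (range -0.63 to 4.20). None of the 35 passed, a count that follows from leaving out the 5 chosen genes: with them it was 5 of 40 (12.5%), beside 15.0% of the 587. The differences of *Sox5*, *Foxp2*, *Zbtb20* and *Dach1* lay above that range and that of *Camta1* within it, an order set in part by the choice of the 5.

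**Figure D5:**
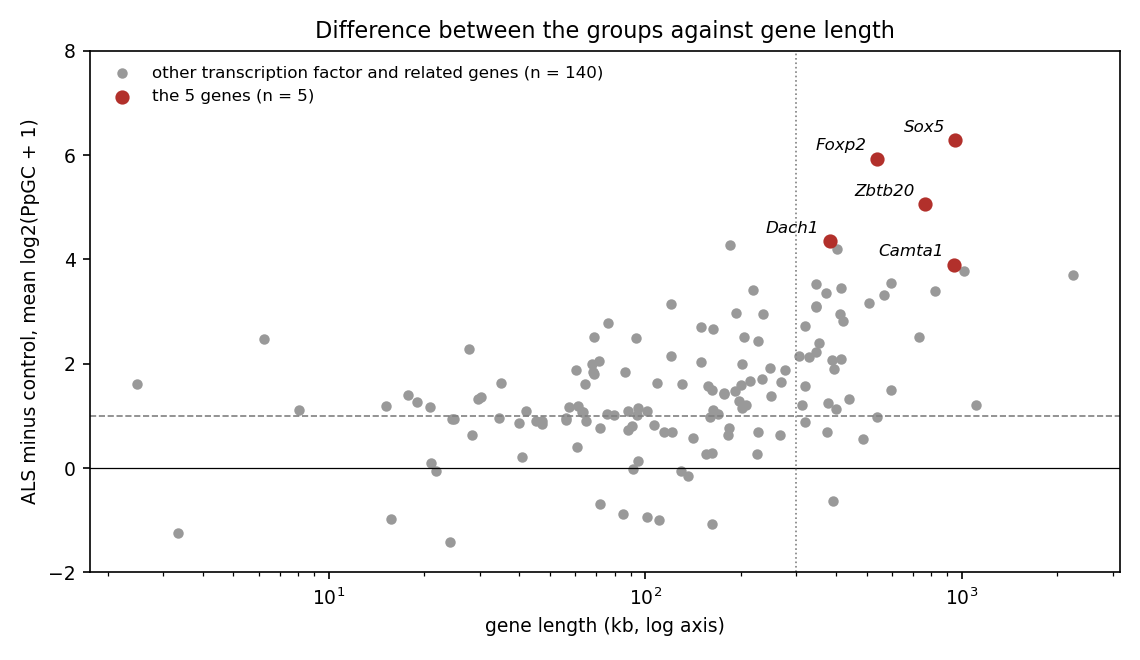
Difference of mean log2(PpGC + 1), ALS minus control, against gene length on a log axis, for the 5 genes (red) and 140 other listed genes (grey), with the threshold of 1 (dashed) and the length of 300 kb (dotted). *Sox5* at 6.29 is the highest point, and long genes lie higher as a group, with *Camta1* at 3.90 among them.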

How the data were processed

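The authors mapped split reads to mm10 with Circle_Finder, merged circles within 10 bp, dropped circles with fewer than 2 split reads, summed split reads per gene over GENCODE gene spans, scaled by gene length and deposited log2(PpGC + 1) for each sample. The GENCODE release is not given in the sources used here, and M21 was used for lengths and positions: 8088 of 8336 gene names had 1 entry (mm10 is GRCm38). The table is sparse, with 91.1% of values at 0.

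Means were compared over the whole table by Student's test for equal variances (SciPy 1.17.1), at the thresholds of the study's methods and two-sided, a choice made here since the sources used do not give the side, with limma 3.58.1 and the exact permutation test over 92378 splits as alternatives and Benjamini-Hochberg adjustment over all genes. On simulated data 194 of 200 changed genes were called and 4 of 8136 unchanged ones. There an unchanged gene had the same chance of an eccDNA in every library, whereas the real groups differed in load. The simulation thus gives no rate of false calls for these data. No library was rescaled, pooled or left out of the values reported first. Named beside the 5 genes were close paralogs, listed genes past both thresholds or in 6 ALS libraries, and for each gene the 3 of nearest pattern, of which 2 are not reported here. The 5 genes and all lists were chosen with earlier results of these data known. Same-numbered ALS and control samples did not deviate together (r = -0.02 to 0.02). With 91.1% of values at 0, this cannot exclude a pairing, and the samples were treated as unpaired.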

Additional observations from a re-analysis of the deposited data

Results flagged for a closer look

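In 6 of the 28 groups of values checked, over 14 genes, the highest library stood apart from the others by Dixon's criterion. Chance alone meets it in about 1 of 20 groups of continuous values, a rate that does not hold here: 4 of the 6 groups had 1 library above 0, and a group with 1 library above 0 always meets it. *Dach1* in ALS 3 was at 13.94, next to 6.87 in ALS 2. In the same library *Sox13* (9.89) and *Dach2* (8.83) were above 0 while the other 8 ALS libraries were at 0. Among controls *Sox5* was at 5.83 in Control 7 and *Zbtb20* at 4.90 in Control 5, with the other 9 at 0. *Cntnap2* was at 14.11 in Control 8, next to 6.25 in Control 9.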

How the results depend on the processing

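Of 351 values computed under alternative settings, 305 kept their direction and side of the threshold, or moved by less than the replicate spread or than 1.5 times for counts. The 305 include differences of the 5 genes, so they are no measure of stability. For *Foxp2*, *Camta1* and *Dach1*, at 0 in all controls, leaving out a control could not change the difference. The ALS SD of *Dach1*, 4.41, was so wide that 1.07 with a pseudocount of 100 counted as kept. The 5 genes were chosen on this contrast, so the counts of them past the thresholds describe the settings, test nothing and say nothing of stability. They were 5 by limma and by the exact permutation test, 1 (*Sox5*) after Benjamini-Hochberg adjustment, 0 with load as covariate, 3 at equal totals, 2 (*Sox5* and *Foxp2*) with a pseudocount of 100 and 3 (*Sox5*, *Foxp2* and *Zbtb20*) with values under 10 split reads set to 0, an alternative chosen after seeing the data. With the replicate number as a block (replicate block) they were 4, as also without length scaling or without ALS 2, *Dach1* being the gene below the threshold. With the block the count over all genes fell from 111 to 54, over long genes from 88 to 50 and over neural factor genes from 1 to 0. Control 10 has no ALS sample of its number, so it adds nothing to the blocked difference. Leaving out Control 10 alone gave 98, 77 and 1. Whether the replicate numbers pair the samples is not known.

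Over all genes the count of 111 became 64 by the exact permutation test, 6 after adjustment, 26 with load as covariate, 71 without length scaling, 9 with a pseudocount of 100 and 25 at 10 split reads or more. After adjustment of the exact p, 0 genes were below 0.05 (smallest 0.321). Long genes became 6 after adjustment, 8 with load and 5 with the pseudocount, and the count lower in ALS rose from 0 to 84 with load as covariate. Neural factor genes past the thresholds were 2 by limma (*Nr3c2* among them, named after its value was seen) and 0 by the exact test, after adjustment, at equal totals, without length scaling and with the pseudocount. Leaving out each library gave 0 to 2 of them, 0 without ALS 8, and 0 to 1 of the family, partner and target genes, 1 without Control 8.

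With the pseudocount of 100 the differences were 1.48 for *Sox5*, 1.51 for *Foxp2*, 0.39 for *Camta1*, 1.07 for *Dach1* and 1.21 for *Zbtb20*. As shares of libraries with an eccDNA they were 0.90, 0.78, 0.78, 0.67 and 0.68. At 10 split reads or more *Camta1* fell from 3.90 to 2.11 and *Dach1* from 4.35 to 2.31. *Dach1* reversed to -2.78 with load as covariate; the cause was not tested. With split reads as the load, r within ALS, a description with no test, turned to -0.32 for *Sox5*, 0.10 for *Foxp2*, -0.48 for *Camta1* and 0.22 for *Zbtb20*, and for *Dach1* it fell to 0.0087. With the load of the gene's own chromosome r was 0.50 for *Zbtb20* (reversed) and 0.40 for *Dach1*. For *Dach1* it was 0.83 without length scaling and 0.76 without the 2 libraries farthest in load. Without those 2 libraries r was 0.47 for *Sox5*, -0.23 for *Foxp2*, 0.18 for *Camta1* and -0.67 for *Zbtb20*. Values of 2 split reads, the minimum, limit how far presence in a library can be read.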
